A study of Mus musculus with 6 samples.

Results

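The expression of 10 genes of the cytotoxic granule was followed in thymic NKT1 cells that carry or lack the coreceptor CD4: the granzymes Gzma, Gzmb, Gzmc, Gzmk and Gzmm, perforin (Prf1), and the granule proteins Srgn, Nkg7, Ctsw and Cst7. They were taken by gene symbol, and all 10 were found among the 47643 genes of the table. NKT1 cells are the T-bet-expressing subset of invariant natural killer T (iNKT) cells, whose nearly fixed T cell receptor recognises lipids on CD1d. The cells of both groups were thymic iNKT cells of WT BALB/c mice isolated by flow cytometry, and mRNA was sequenced in 3 CD4-positive and 3 CD4-negative NKT1 libraries to compare the coreceptor subsets. The labels name no treatment, age or sex. They do not tie a library to an animal either, so each p-value is set against library-to-library spread, part of which may be technical. Values of a group are given in the order of replicates 1, 2 and 3.

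Killer lymphocytes store granzymes, which are serine proteases, in secretory lysosomes together with perforin, which forms pores in the target cell's membrane and lets granzymes enter. Granzymes are bound there to serglycin, the proteoglycan core protein encoded by Srgn, and are made active by cathepsin C, which cystatin F (Cst7) can inhibit. iNKT cells of the NKT1 subset are known for a natural killer (NK) cell-like programme that includes granule proteins.

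The libraries held 40480480 to 53145883 estimated counts. CD4-negative replicate 3 stood apart from the other libraries, with a score of -90.2 on the first principal component (46.3% of the variance), where the others lay between -2.32 and 32.2, and with counts for 13789 genes against 15295 to 16271. Cd4, the sort marker, separated the groups (401 to 508 CPM in CD4-positive, 10.9 to 41.2 CPM in CD4-negative libraries; log2 difference 4.32, SE 0.52, adjusted p = 0.0329). Of the 6 genes fixed as markers of iNKT and T cells, all had counts in every library, among them Tbx21 (T-bet, 297 to 639 CPM) and Zbtb16 (PLZF, a transcription factor of iNKT cells). Zbtb16 stood at 151, 98.1 and 70.2 CPM in CD4-positive and at 60.0, 63.7 and 62.0 CPM in CD4-negative libraries, higher in CD4-positive libraries without overlap (log2 difference 0.78, adjusted p = 0.804), while the other 5 markers overlapped. Levels are TMM-scaled CPM, that is read counts scaled to library size (CPM) with edgeR's correction for library composition, and log2 fold changes are CD4-positive minus CD4-negative. In bulk libraries, fewer cells with a transcript and less of it per cell cannot be told apart.

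The granzyme genes lie in separate parts of the genome (GENCODE M21, GRCm38). Gzma (113093825 to 113100981) and Gzmk (113171608 to 113225908) are neighbours on the minus strand of chromosome 13. Gzmb (56258838 to 56262260) and Gzmc (56231441 to 56234656) stand at one end of a cluster of granule protease genes on the minus strand of chromosome 14. Gzmm (79689020 to 79695261), Prf1 (61297833 to 61304680) and Srgn (62493833 to 62527451) are on chromosome 10, Nkg7 (43437073 to 43438249) on chromosome 7, Ctsw (5465043 to 5468507) on chromosome 19 and Cst7 (150570415 to 150578944) on chromosome 2. An exon of Ctsw overlaps an exon of Fibp on the opposite strand, and as the strand setting of the counting is not given, reads of these genes cannot be told apart there. Gzmk overlaps Esm1, which had no count. The estimated counts of the 10 genes were whole in every library.

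The 250 bases before the RefSeq start are shown for the granzyme that differed most between the groups in level (Gzma), the other abundant granzyme (Gzmb), its neighbour Gzmc and perforin, 5′ to 3′ on the gene's own strand. They are from GRCm38.p6 at chr13:113100982-113101231, chr14:56262335-56262584 and chr14:56234658-56234907 on the minus strand and at chr10:61297586-61297835 on the plus strand. Capitals mark matches, on either strand, to the motif letters TGTGGT (RUNX), TGANTCA (AP-1) or CAGGAAG (ETS); GGTGTGA (T-box) and TTCNNNGAA (STAT) were searched too and have no match in these 4 windows.
Gzma: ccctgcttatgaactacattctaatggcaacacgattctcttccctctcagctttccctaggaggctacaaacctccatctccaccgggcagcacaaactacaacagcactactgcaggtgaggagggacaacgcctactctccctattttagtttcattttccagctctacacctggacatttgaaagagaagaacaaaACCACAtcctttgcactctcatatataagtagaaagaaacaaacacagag
Gzmb: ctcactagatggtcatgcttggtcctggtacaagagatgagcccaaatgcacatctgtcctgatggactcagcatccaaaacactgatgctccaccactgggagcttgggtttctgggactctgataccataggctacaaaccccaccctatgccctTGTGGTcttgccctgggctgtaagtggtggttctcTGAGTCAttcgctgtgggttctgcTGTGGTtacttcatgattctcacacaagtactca
Gzmc: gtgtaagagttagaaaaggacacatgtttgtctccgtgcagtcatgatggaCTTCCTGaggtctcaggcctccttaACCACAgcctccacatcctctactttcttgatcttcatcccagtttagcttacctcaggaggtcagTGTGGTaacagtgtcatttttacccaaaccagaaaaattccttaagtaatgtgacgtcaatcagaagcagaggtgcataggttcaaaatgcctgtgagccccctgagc
Prf1: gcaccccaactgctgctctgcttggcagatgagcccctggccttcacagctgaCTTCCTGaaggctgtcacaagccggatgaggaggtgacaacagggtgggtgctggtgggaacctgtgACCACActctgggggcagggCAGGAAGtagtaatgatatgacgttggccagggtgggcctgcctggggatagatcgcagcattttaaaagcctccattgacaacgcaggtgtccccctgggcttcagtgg

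Of the 10 genes, 9 had a RefSeq start in the table, and Ctsw did not. The RUNX letters were found in the window of 8 of these 9 (Gzma, Gzmb, Gzmc, Gzmm, Prf1, Srgn, Nkg7 and Cst7) and in 14.1% of all 32851 windows. Srgn and Gzmm have 2 windows, and the match of Srgn lies in the second. The windows of Gzmd, Gzme, Gzmf and Gzmg, which had no count in any library, also held the RUNX and the ETS letters. That of Gzmn, also without a count, held neither. In Gzma the RUNX match spans bases -50 to -45 from the start. Gzmb has 2 RUNX matches, at -93 to -88 and -34 to -29, and the only AP-1 match among the 9 genes, at -58 to -52, where 6.75% of all windows hold one. The T-box letters were found in Gzmk, Gzmm (in its second window) and Nkg7, and in 3.33% of all windows. The ETS letters were found in Gzmc, Prf1 and Nkg7 (10.8%) and the STAT letters in Gzmm and Nkg7 (7.02%). These are shares of single windows, while Srgn and Gzmm were searched in 2 each. A match is a description of the letters, and no binding was measured.

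Gzma, which encodes the tryptase granzyme A, was the granule gene with the widest gap between the subsets. It stood at 201, 109 and 178 CPM in CD4-positive libraries and at 1059, 735 and 1935 CPM in CD4-negative libraries. The groups did not overlap, and the lowest CD4-negative library was above the highest CD4-positive library. The means were 163 ± 47.6 and 1243 ± 621 CPM (SD, n = 3), a 7.64-fold difference. On the log2 scale the difference was -2.93 (SE 0.41), with an adjusted p of 0.0545 by edgeR's quasi-likelihood test, so it did not pass the threshold of 0.05. Without CD4-negative replicate 3, which held the highest level, the difference was -2.46 and passed (adjusted p = 0.0309), and over the alternatives it lay between -3.20 and -2.46 with adjusted p from 8.34e-13 to 0.320. Within replicates 1 and 2, which share a library naming scheme, it was -2.53 (adjusted p = 0.153); the other scheme holds 1 library per group, at 178 and 1935 CPM.

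**Figure D1:**
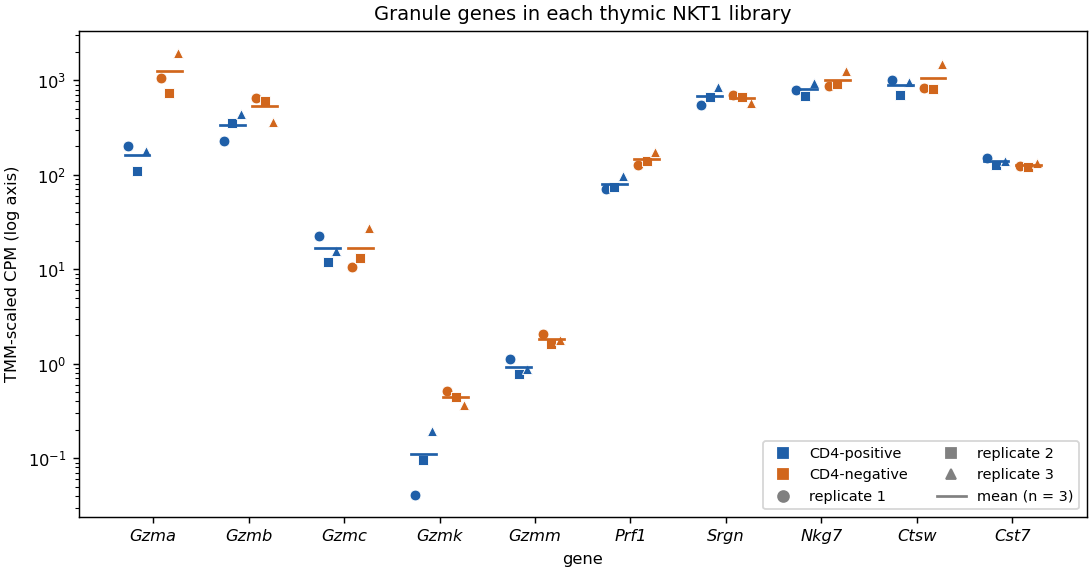
TMM-scaled CPM (log axis) of the 10 granule genes in each library, with CD4-positive libraries in blue, CD4-negative libraries in orange, a symbol for each replicate number and a bar at the mean of 3. The groups separate for Gzma, Gzmk, Gzmm and Prf1, and the Gzmb value of CD4-negative replicate 3 (359 CPM) sits among the CD4-positive values.

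Gzmb, which encodes the aspartase granzyme B, did not follow Gzma in every library. Its levels were 228, 350 and 436 CPM in CD4-positive libraries and 658, 602 and 359 CPM in CD4-negative libraries. CD4-negative replicate 3, the library with the most Gzma, was the CD4-negative library with the least Gzmb, and its value lay inside the CD4-positive range. CD4-positive replicate 1 likewise held the most Gzma and the least Gzmb of its group. Both libraries had a low share of mitochondrial counts (1.33% and 1.35%, against 3.51% to 5.19% in the others). Whether the granzyme values go with such a difference between libraries was not tested. The means were 338 ± 105 and 539 ± 159 CPM, and the log2 difference was -0.67 (SE 0.31, adjusted p = 1.0). Within replicates 1 and 2 it was -1.12 (SE 0.24, adjusted p = 0.360), and without CD4-positive replicate 1 it was -0.46 (adjusted p = 0.955); over the alternatives the adjusted p ran from 0.0928 to 1.0.

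Perforin was lower in every CD4-positive library than in any CD4-negative library. Prf1 stood at 70.4, 75.2 and 96.1 CPM in CD4-positive and at 128, 139 and 174 CPM in CD4-negative libraries. The means of 80.6 ± 13.6 and 147 ± 24.1 CPM differ 1.82-fold, less than those of Gzma, and the spread within a group was 16.9% and 16.4% of the mean. The log2 difference of -0.87 (SE 0.19) had an adjusted p of 0.255 by edgeR and of 0.0208 by DESeq2. It lay between -1.01 and -0.72 over the alternatives, with adjusted p from 0.0208 to 1.0, so its size moved little while its call differed between tools.

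Gzmc, which encodes granzyme C and lies next to Gzmb, was a minor transcript with no steady direction. It stood at 22.8, 12.0 and 15.8 CPM in CD4-positive and at 10.6, 13.05 and 27.2 CPM in CD4-negative libraries. The highest and the lowest of the 6 values were both CD4-negative. The log2 difference was -0.01 (SE 0.39) and its sign changed in 9 of 16 alternatives. Further along the same cluster Gzmd, Gzme, Gzmf, Gzmg and Gzmn were at 0 in all 6 libraries; by counting error alone a 0 leaves room for 3 counts (0.0564 to 0.0741 CPM). Over 250 bases before the start, Gzmc shares 80.5%, 80.9%, 70.2% and 73.7% of the aligned letters with Gzmd, Gzme, Gzmf and Gzmg, 45.6% with Gzmn and 47.8% with Gzmb, so the windows most like that of Gzmc belong to genes with no count. The coding sequences of Gzmb and Gzmc are 75.9% identical, with 49 bases as the longest identical run between their transcripts, and Gzma and Gzmb are 54.5% identical with a longest run of 11 bases. Gzmc shares runs of 29 to 68 bases with the 5 genes at 0. Reads inside such runs could have been assigned to either gene of a pair.

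Gzmm and Gzmk were present at trace levels. Gzmm, which encodes granzyme M, a protease best known from NK cells, stood at 1.13, 0.77 and 0.89 CPM in CD4-positive and at 2.07, 1.61 and 1.80 CPM in CD4-negative libraries. The groups did not overlap, and the log2 difference was -0.97 (SE 0.35, adjusted p = 0.874). Gzmk, which encodes a tryptase like granzyme A, had 2, 5 and 10 counts in CD4-positive and 24, 24 and 14 counts in CD4-negative libraries. Its log2 difference was -1.98 (SE 0.74, adjusted p = 0.913). Gzmk had 10 counts in only 1 CD4-positive library and so passed the filter on low counts through the CD4-negative group, and 2 counts are below the 3 that a count of 0 allows.

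Within each library, the counts of the 5 granzymes were also expressed as shares of their sum. Gzma held 44.4%, 23.1% and 28.2% of all granzyme counts in CD4-positive libraries and 61.2%, 54.4% and 83.3% in CD4-negative libraries. Gzmb held 50.4%, 74.1% and 69.1% and 38.0%, 44.5% and 15.4% in the same order. Gzmb was thus the most counted granzyme of each CD4-positive library and Gzma that of each CD4-negative library. The groups did not overlap for either share. Per kilobase of merged exon the order differed in CD4-positive replicate 1, with Gzma at 199 and Gzmb at 159 CPM per kilobase. In CD4-positive replicates 2 and 3 Gzmb stayed above Gzma (244 against 109 and 304 against 177). The mean Gzma share differed by -34.4 percentage points and the mean Gzmb share by 31.9 points. A 2-sided exact permutation test gave p = 0.10 for both, the smallest that 3 against 3 libraries allow, and 0.125 after Benjamini-Hochberg adjustment over 5 shares, so neither passed. Gzmc held 2.51% to 5.03% of granzyme counts in CD4-positive and 0.615% to 1.17% in CD4-negative libraries (exact p = 0.10), and Gzmm 0.141% to 0.250% against 0.0775% to 0.119% (exact p = 0.10), while the Gzmk shares overlapped (exact p = 0.60). These shares sum to 100%, so a larger share of Gzma lowers the others whatever their own level.

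**Figure D2:**
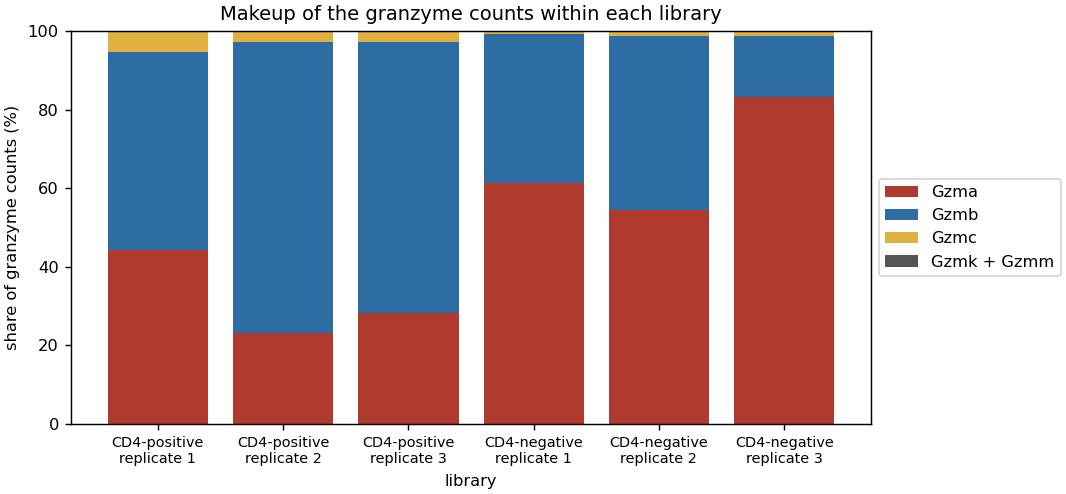
Share of the summed counts of 5 granzymes (%, vertical axis) that each granzyme holds in each of the 6 libraries (horizontal axis). Gzma takes 23.1% to 44.4% of the counts in CD4-positive libraries and 54.4% to 83.3% in CD4-negative libraries, and the part of Gzmk and Gzmm is too small to see.

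Nkg7, Srgn, Ctsw and Cst7 overlapped between the groups. Nkg7, a membrane protein of cytotoxic granules that takes part in their release, stood at 786, 680 and 944 CPM in CD4-positive and at 866, 906 and 1272 CPM in the CD4-negative group (a log2 difference of -0.34, SE 0.22). Srgn had levels of 552, 668 and 841 CPM and of 697, 661 and 580 CPM, so that its highest and its lowest value were both CD4-positive (log2 0.09, SE 0.20). Ctsw, which encodes cathepsin W, a cysteine protease of NK cells and CD8 T cells, stood at 1006, 692 and 956 CPM and at 828, 814 and 1501 CPM. Its log2 difference of -0.24 (SE 0.29) rested on CD4-negative replicate 3, without which it was 0.11. Cst7 was the steadiest of the 10 genes, at 153, 128 and 142 CPM and at 125, 122 and 133 CPM, with a spread of 8.78% and 4.44% of the mean (log2 0.15, SE 0.14). All 4 genes had an adjusted p of 1.0, and none of these differences was larger than 2 times its SE.

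By edgeR none of the 10 genes passed at an adjusted p under 0.05, where 0.212% of the 12760 genes tested did (0.141% lower and 0.0705% higher in CD4-positive libraries). At an unadjusted p under 0.05 there were 4 of 10 (Gzma, Prf1, Gzmm and Gzmk), against 4.44% of all genes tested. The same 4 genes had groups that did not overlap, each lower in CD4-positive libraries, against 4.57% of all genes tested (9.41% in either direction), and 1 of them, Gzmk, passed the filter only through the group where it is high. The log2 difference was below 0 for 8 of 10 genes with a median of -0.51, against 51.1% and a median of -0.01 for all genes tested. DESeq2 called 2 of the 10 genes, Gzma and Prf1, where it called 164 of the 15620 genes to which it gave an adjusted p (1.05%). Limma-voom called Gzma, against 29 of 12760 genes (0.227%), and with sample quality weights it called Gzma and Prf1, against 176 of 12760 genes (1.38%). EdgeR called Gzma alone of the 10 without a filter on low counts, against 67 of 19416 genes (0.345%), and without CD4-negative replicate 3, against 44 of 13145 genes (0.335%).

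Levels of different genes were compared as CPM per kilobase of merged exon. In CD4-positive libraries Nkg7 was the highest (mean 879, range 744 to 1033) and Ctsw was next (367 to 533), without overlap. From Ctsw down, Srgn (252 to 383), Gzmb (159 to 304), Gzma (109 to 199) and Cst7 (130 to 155) each overlapped their neighbour in the order. Prf1 (27.3 to 37.2) and Gzmc (13.4 to 25.5) came below, each apart from its neighbours. In CD4-negative libraries Gzma had the highest mean (1235, range 731 to 1923), overlapping Nkg7 (947 to 1392), and was first, second and first among the 10 genes in replicates 1, 2 and 3. In CD4-positive replicates 1, 2 and 3 it was the fourth, the sixth and the fifth. Gzmm and Gzmk were the lowest in all libraries, with at most 1.40 and 0.37 CPM per kilobase.

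Other genes of the granule pathway were read from lists on activation and inhibition, sorting, docking and regulation. Among genes for the activation and inhibition of granule proteases 1 of 9 tested passed, Serpinb9b, a clade B serpin, with 6.33, 5.63 and 8.06 CPM in CD4-positive and 34.3, 27.7 and 50.5 CPM in the CD4-negative group (a log2 difference of -2.49, SE 0.27, adjusted p = 0.0298). No gene of the whole table passed when any library other than CD4-negative replicate 3 was left out. Serpinb9, an inhibitor of granzyme B, stood at 77.8, 100.5 and 108 CPM in CD4-positive and at 163, 175 and 171 CPM in CD4-negative libraries without overlap (log2 -0.83, SE 0.17, adjusted p = 0.174). Serpinb6b, another clade B serpin, stood at 56.5 to 83.3 and 74.2 to 132 CPM with overlap (log2 -0.67, SE 0.26, adjusted p = 0.955). These 3 serpins, of 9 genes tested, were those at an unadjusted p under 0.05, against 4.44% of all genes tested. By adjusted p it was 1 of 9, against 0.212%. The list was chosen with earlier results of these data known. Ctsc, which encodes the cathepsin C that activates granzymes, stood at 94.4 to 168 CPM with overlapping groups (log2 0.11, SE 0.26), and Ctsc, Serpinb9 and Serpinb6b were named after their values were seen. The median log2 difference of that list was -0.06.

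By edgeR none of the 9 tested genes for sorting and lysosomal proteins passed, with a median log2 difference of -0.00. Lamp1, a lysosomal membrane protein that reaches the cell surface when granules are released, had the smallest p of them and stood at 126 to 145 CPM in CD4-positive and 157 to 167 CPM in the CD4-negative group (a log2 difference of -0.25, SE 0.14). Lamp2 stood at 41.5 to 57.1 and 39.1 to 44.7 CPM (log2 0.25, SE 0.17). None of the 9 tested genes for docking and fusion of granules passed either, with a median of -0.03. The 2 with the smallest p were Rab37, a small GTPase of secretory granules (64.7 to 85.5 against 59.1 to 59.5 CPM, log2 0.29, SE 0.16), and Sytl1, a synaptotagmin-like protein (22.2 to 26.9 against 27.3 to 30.3 CPM, log2 -0.25, SE 0.15). The lists on sorting and docking held no gene at an unadjusted p under 0.05, and Vamp7 of the docking list was not analysed here.

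Among 8 transcription factors of cytotoxic lymphocytes none passed by edgeR, and the median log2 difference was -0.02. At an unadjusted p under 0.05 there was 1 of 8 (Eomes), against 4.44% of all genes tested. Eomes, a T-box factor of NK cells and memory T cells, stood at 14.03, 10.2 and 10.8 CPM in CD4-positive and at 47.2, 35.4 and 24.3 CPM in the CD4-negative group (a log2 difference of -1.61, SE 0.27, adjusted p = 0.0964). Its groups did not overlap. Among CD4-negative libraries it was lowest in replicate 3, the library that stood apart from the others and held the most Gzma. Whether the Eomes and Gzma values go together was not tested. Hopx, a homeodomain protein of effector T cells, stood at 29.7 to 50.6 and 46.1 to 76.7 CPM (log2 -0.58, SE 0.28).

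**Figure D3:**
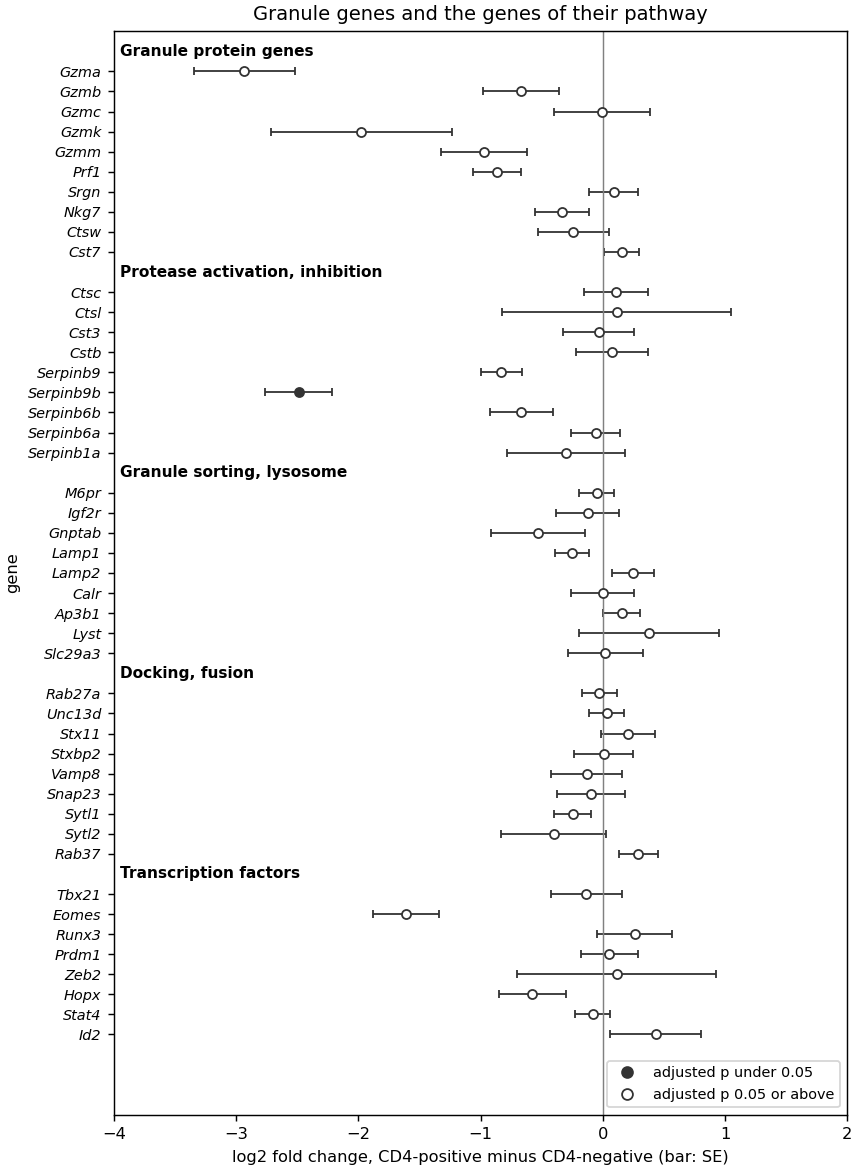
Log2 fold change, CD4-positive minus CD4-negative (horizontal axis), with its SE as a bar, for the 10 granule genes and the tested genes of 4 pathway lists; filled points have an adjusted p under 0.05 by edgeR. Serpinb9b at -2.49 is the only filled point, and Gzma at -2.93 lies farthest from 0.

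Markers of other granule-bearing cells were read beside these values. The 9 markers of NK cells and related innate lymphoid cells all had counts. They summed to 189 to 222 CPM in CD4-positive and 371 to 395 CPM in CD4-negative libraries. Of the 9, 5 (Ncr1, Klre1, Eomes, Tyrobp and Fcer1g) were lower in CD4-positive libraries without overlap, while Fcgr3 was higher. Of all genes tested 4.57% were lower without overlap, and 9.41% did not overlap in either direction. The markers were chosen with earlier results of these data known. Ncr1, the receptor NKp46, stood at 20.8 to 33.5 and 74.7 to 92.8 CPM, and the part of these transcripts in the Gzma and Prf1 values was not tested. The CD8 T cell markers Cd8a and Cd8b1 summed to 21.5 to 77.3 and 38.9 to 159 CPM with overlap. Mast cell and basophil markers were at or near 0, with a sum of at most 0.344 CPM over 7 genes and no count of Ms4a2, Fcer1a or Mcpt8, and the 9 myeloid markers summed to at most 2.09 CPM with no count of S100a8, S100a9 or Elane. Of the 5 gamma-delta T cell markers Sox13 was higher in CD4-positive libraries without overlap. The sums of the 5 were 607 to 616 and 597 to 647 CPM. Most of each sum came from Tcrg-C1, Tcrg-C2 and Tcrg-C4, which lay between 112 and 347 CPM. Trdc stood at only 3.003, 1.25 and 1.97 CPM in CD4-positive and at 2.88, 1.78 and 2.77 CPM in CD4-negative libraries. Which cells gave these transcripts was not tested. B cell markers summed to 0.482 to 1.47 and 2.39 to 3.01 CPM, and the 4 markers of immature thymocytes to 4.22 to 60.5 and 3.61 to 48.4 CPM. Replicate 3 held the highest sum of each group, 60.5 and 48.4 CPM. Rag1 stood at 44.8 and 15.6 CPM there, against 2.13 to 7.12 CPM in the other libraries. The replicate 3 libraries share a naming scheme, and the cause was not tested.

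The genes whose pattern was most like that of Gzma over the 6 libraries, by Pearson correlation of log2 CPM among genes with a mean of at least 5 CPM, were Them6 (0.994), Cd7 (0.993), Tmem176b (0.989), Spryd7 (0.988) and Serpinb9b (0.988). The 6 points share their libraries and fall into the 2 groups, and many genes were searched, so these values are a description. Cd7, an immunoglobulin-family receptor of T and NK cells, spanned 813 to 915 CPM in CD4-positive and 1079 to 1246 CPM in CD4-negative libraries, a much narrower range than that of Gzma. Only Serpinb9b of these 5 had an adjusted p under 0.05.

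**Figure D4:**
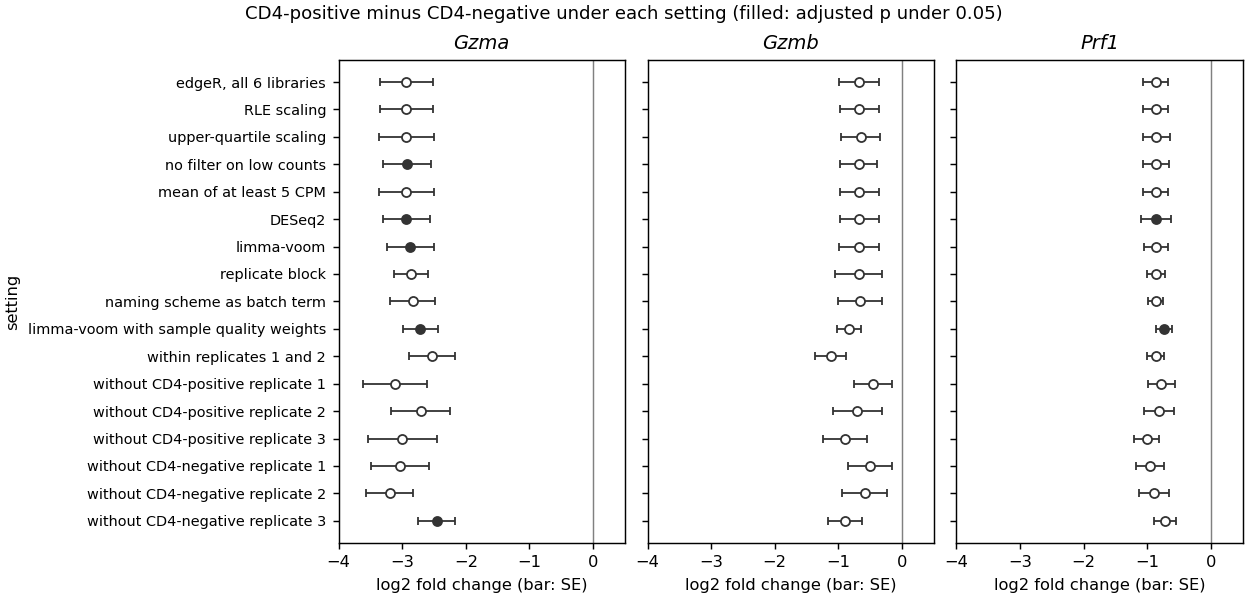
Log2 fold change, CD4-positive minus CD4-negative (horizontal axes), with its SE as a bar, of Gzma, Gzmb and Prf1 under edgeR with all 6 libraries and under 16 other settings (rows); filled points have an adjusted p under 0.05. Gzma passes in 5 of the 16 other settings and Prf1 in 2, Gzmb passes in none, and all points lie below 0.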

How the data were processed

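Stranded TruSeq mRNA libraries, made from RNA purified with a Qiagen micro kit, were read from both ends on a HiSeq4000, per the labels' protocols. The tools STAR, Picard and RSEM and the build mm10 come, without versions or roles, per the submitters' processing notes. Annotation and strand setting of the counting: not given in the sources used here. What the authors deposited is 1 table of estimated counts per gene, not normalised, and its 6 columns were matched to samples by library name. Values were rounded to whole numbers. Of the identifiers, 47224 were found in GENCODE M21, which gave positions and exon lengths. Pairs of libraries within a group differed beyond sampling noise (chi-square per degree of freedom 55.5 to 400.5), and all 6 were kept.

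The test was edgeR 4.0.16 in R 4.3.3: filterByExpr (12760 genes), TMM scaling, a robust quasi-likelihood F test (2-sided, group as the only term) with Benjamini-Hochberg adjustment over all genes tested. The SE was derived from the F statistic. DESeq2 1.42.0 and limma 3.58.1 were alternatives; the quality-weighted limma-voom fit and the fit within replicates 1 and 2 were added after seeing the data. The fits were run on simulated data with less spread than these data and no outlying library. That checks the code and not the calls made here. Text names the 10 genes, from each list the called genes or else the 2 with the smallest p, and the 5 genes most like Gzma. The granule genes, lists and markers were chosen with earlier results of these data known. Identity is identical letters over alignment length in a global alignment (Biopython 1.88). A single marker gene is not reported here.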

Additional observations from a re-analysis of the deposited data

How the results depend on the processing

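Gzma, Gzmb, Gzmk, Gzmm, Prf1, Nkg7 and Cst7 kept their direction under each alternative that tested them. The 5 granzyme shares kept theirs in all 8 alternatives. Where the groups do not overlap, leaving out a library can hardly change the direction. This covers the levels of Gzma, Gzmk, Gzmm and Prf1 and the shares of Gzma, Gzmb, Gzmc and Gzmm. The replicate block leaves each share difference as it is, so for these shares only counts per kilobase could have turned it. Of the 10 granule genes 0 passed by edgeR; 1 passed without a filter on low counts, 1 by limma-voom, 2 by DESeq2 and 2 with sample quality weights, and 0 to 1 with a library left out. Over all genes 27 passed, against 67 without a filter, 164 by DESeq2, 176 with sample quality weights, 11 with the naming scheme as a batch term, 9 within replicates 1 and 2, and 0 to 44 with a library left out; the 44 came without CD4-negative replicate 3, and each other omission gave 0 (434 to 585 genes at an unadjusted p under 0.05). The cause was not tested.

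With the replicate number as a block 0 genes passed (531 at an unadjusted p under 0.05), and the Gzma difference was -2.86 (adjusted p = 0.115); the Gzma share differed by the same -34.4 points (exact sign-flip p = 0.25, the smallest that 3 pairs allow). Deviations of same-numbered libraries correlated at -0.08, 0.34 and 0.04, and those of differently numbered libraries at -0.35 to 0.24. Library names match across the groups by number or scheme. With 3 libraries per group the correlations cannot decide whether the numbers are pairs. The main fit did not take them as pairs. The difference of Gzmc turned to 0.0019 without a filter, 0.085 by limma-voom, 0.057 with the block, 0.11 with the batch term, 0.27 with quality weights, 0.56 within replicates 1 and 2, and up to 0.51 with a library left out (from -0.28). That of Srgn turned to -0.15 and that of Ctsw to 0.054 within replicates 1 and 2, and with a library left out they spanned -0.079 to 0.22 and -0.39 to 0.11. A mean of at least 5 CPM left Gzmk and Gzmm untested. Gzmk and Gzmm rest on few counts per library (2 to 24 and 40 to 96), and 5 granzymes had no count. Whether more depth would change these values was not tested.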
